A study of Oncorhynchus mykiss with 13 samples.

Results

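Among the 9023 rainbow trout cDNA clones of a nylon array, 96 unlisted clones had a higher ratio in every maturing female than in any earlier female. They were chosen by that measurement: the clone had to be above 0 on all 13 arrays, which left 8077 clones, and its lowest ratio in the 6 females in oocyte maturation had to exceed its highest ratio in the 7 earlier females. Of the 8077 clones, 144 (1.78%) met this separation, and the 48 of them that the study lists by name in its clusters were left out (41 of cluster 2 and 7 of cluster 3). The study names only clusters that it picked for their remarkable patterns, from a larger set of clones that it found to differ. Unlisted clones may thus be among those it found, and the listed clones were chosen for their patterns. The separation between maturing and earlier females is therefore how the 96 clones were defined, and all values that set maturing against earlier females describe the choice and test nothing.

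RNA of whole ovarian tissue of 13 separate females was reverse transcribed into labelled cDNA and hybridized to 1 array each. The females were of the same age, in their first reproductive season and of an autumn-spawning strain. The 6 maturing females (numbers 25 to 30) had resumed meiosis and were sampled near germinal vesicle breakdown. The 4 post-vitellogenic females were numbers 13, 14, 15 and 31, and the 3 late vitellogenic females were numbers 2, 3 and 4. Post-vitellogenic female 14 was the only one of its stage labelled as having the germinal vesicle at the oocyte periphery. Each value is the spot signal, corrected for the DNA in the spot, divided by the median of the array, so that 1 is the level of the median spot. In whole tissue, a higher ratio from more cells of a type cannot be told apart from more RNA per cell.

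At the end of vitellogenesis the trout oocyte has stored its yolk and is arrested in meiosis inside a follicle of granulosa and theca cells. The germinal vesicle, the oocyte nucleus, can already lie at the periphery in post-vitellogenesis. Gonadotropins make the follicle produce a maturation-inducing steroid, under which meiosis resumes and the germinal vesicle breaks down. The follicle then loosens around the oocyte and opens at ovulation, so ovarian tissue of a maturing female holds oocytes and follicle cells that are both changing. The clones described here are named by library, plate and well, and the sources used here do not pair them with genes, so no function is given to any of them.

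The 96 clones were mostly moderate in size of change and low in ratio. Their ratios in maturing females were between 1.16-fold and 20.01-fold those in earlier females, with a median of 1.45-fold (ratios of geometric means). At least 1.5-fold was reached by 42 clones, 2-fold by 12 and 4-fold by 2. The 48 listed clones that met the same separation had a median of 2.37-fold, and 30 of them reached 2-fold. In the heat map of all 96 clones, the rise is seen in each of the 6 maturing females and the clones at the top of the order carry the strongest colours.

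**Figure D1:**
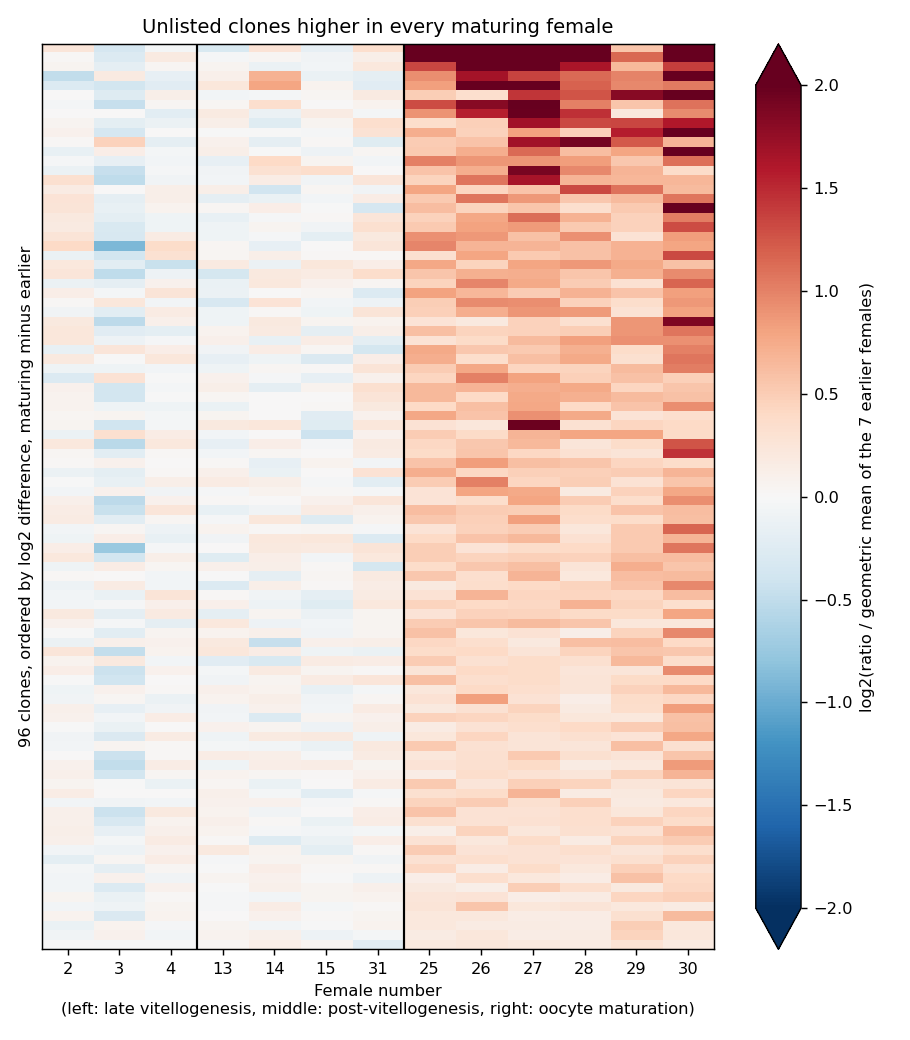
Each row is 1 of the 96 clones and each column a female, ordered by stage, with colour giving the log2 of the ratio over the geometric mean of the 7 earlier females, limited to 2 in either direction. Colours in the 6 maturing females are red throughout, as the choice of clones requires, and female 3 is the bluest column of the earlier females.

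The margin between the groups was narrow for most clones. The lowest maturing ratio was a median of 1.055-fold the highest earlier ratio (range 1.001 to 1.95), the margin was under 1.05-fold in 46 clones and it reached 1.2-fold in 4. Among the 48 listed clones the median margin was 1.32-fold, and 17 of them had a margin of at least 1.5-fold, against 1 of the 96 unlisted clones. Nearest inside the threshold was tcay0019.c.14, with 1.193 in its lowest maturing female against 1.192 in its highest earlier female, followed by tcbk0014.m.11 and tcay0026.n.16. Just outside were 1RT34L23_B_F12, with 0.7594 in its lowest maturing female against 0.7596 in its highest earlier female, tcbk0026.n.03 (0.303 against 0.304) and 1RT96C12_C_B06 (0.970 against 0.972).

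**Figure D2:**
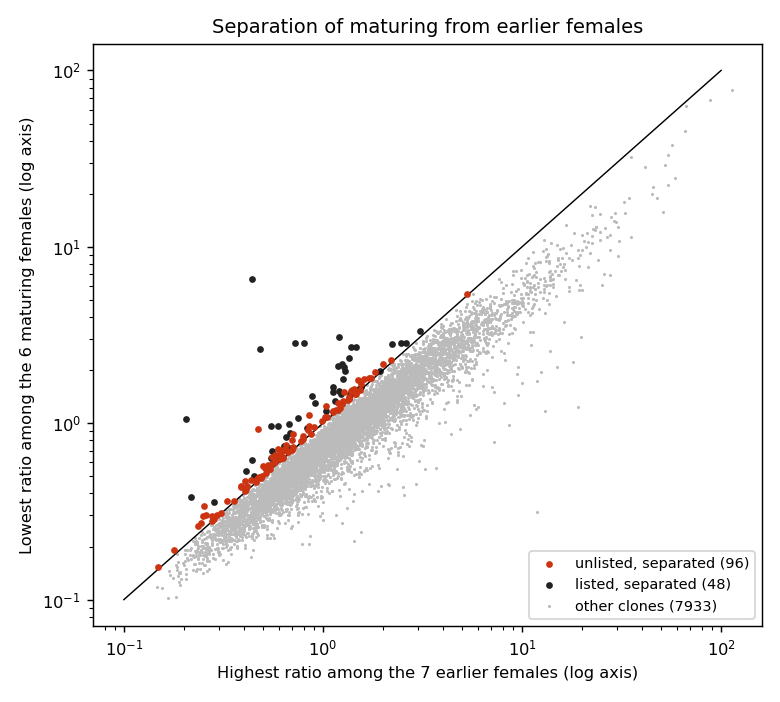
Each point is a clone, with the highest ratio among the 7 earlier females on the horizontal log axis and the lowest ratio among the 6 maturing females on the vertical log axis, and points above the diagonal meet the separation. Most of the 96 unlisted clones lie close to the diagonal, while the 48 listed clones reach farther above it.

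The largest difference was that of tcba0019.d.09. Its ratio was 0.757 in the lowest maturing female, had a median of 21.1 and reached 46.6 in the highest, against 0.610, 0.406 and 0.50 in the late vitellogenic females and 0.417, 0.622, 0.459 and 0.654 in the post-vitellogenic females 13, 14, 15 and 31. Maturing females 25, 26, 27 and 28 stood at 17.8 or more, female 30 at 2.13, and female 29 was only 1.16-fold above the highest earlier female. No clone above 0 on all arrays had a wider range among the maturing females (61.5-fold), so its 20.01-fold mean difference (4.32 on the log2 scale) stands for 4 strongly raised females, 1 intermediate female and 1 near the earlier level.

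The clone tcbk0045.o.06 had the largest margin of the 96. Its ratio in maturing females had a lowest value of 0.922, a median of 2.30 and a highest of 8.19, against 0.423, 0.345 and 0.473 in late vitellogenesis and 0.408, 0.430, 0.399 and 0.450 in post-vitellogenesis. All 6 maturing females were at least 1.95-fold above the highest earlier female, with female 27 far above the other five and female 29 lowest again. The mean difference was 5.91-fold, and it lay between 4.65-fold and 7.20-fold when the values were prepared in other ways or a female was left out.

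A clone of low ratio, tcbk0049.o.22, had the next largest difference. It ran from 0.342 to 1.34 in maturing females, with a median of 0.618, against 0.192 to 0.252 in earlier females, with a median of 0.222. The mean difference was 3.23-fold, and females 26 and 27, at 1.26 and 1.34, were the only ones above the array median.

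Females 26 and 27 were also the highest for tcba0009.m.07 and tcbk0024.c.18. For tcba0009.m.07 the maturing ratios ran from 0.574 to 1.67 (median 0.904), against 0.285 to 0.498 (median 0.403) in earlier females. For tcbk0024.c.18, which sat at the array median before maturation, they ran from 1.18 to 4.04 (median 2.40), against 0.889 to 1.16 (median 1.03). In both clones female 29 was the lowest maturing female, as it was for the first 3 clones.

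A further group of clones was highest in female 30. The ratio of tcay0030.j.06 was 1.26 in female 30 and 0.763 in female 29, while females 25 and 26, at 0.304 and 0.273, were close to the highest earlier female at 0.244. In tcbk0006.b.10 females 30 and 29 again led with 1.94 and 0.935, and the other maturing females ran from 0.435 to 0.553, against 0.251 to 0.386 in earlier females. In tcac0004.e.16 female 30 reached 3.97 and the other five ran from 1.11 to 1.70, against 0.699 to 0.847 in earlier females. Female 29, the lowest maturing female of the first group, was the next highest in tcay0030.j.06 and tcbk0006.b.10, and female 27 was in tcac0004.e.16 (1.70).

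Over all 96 clones, 19 had a range of more than 2-fold among the maturing females. Of these, 10 were highest in female 27 and 8 in female 30, and the last was highest in female 28. Over all 8077 clones, whatever their range, female 30 was the highest maturing female in 35.5% and female 27 in 8.46%. No share of all clones is given for the count of 19. Female 29 was the lowest of the 6 in 5 of the 10 clones that were highest in female 27. The other 77 clones were within 2-fold among the maturing females, and the median range of the 96, 1.45-fold, was near the 1.49-fold of all 8077 clones.

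**Figure D3:**
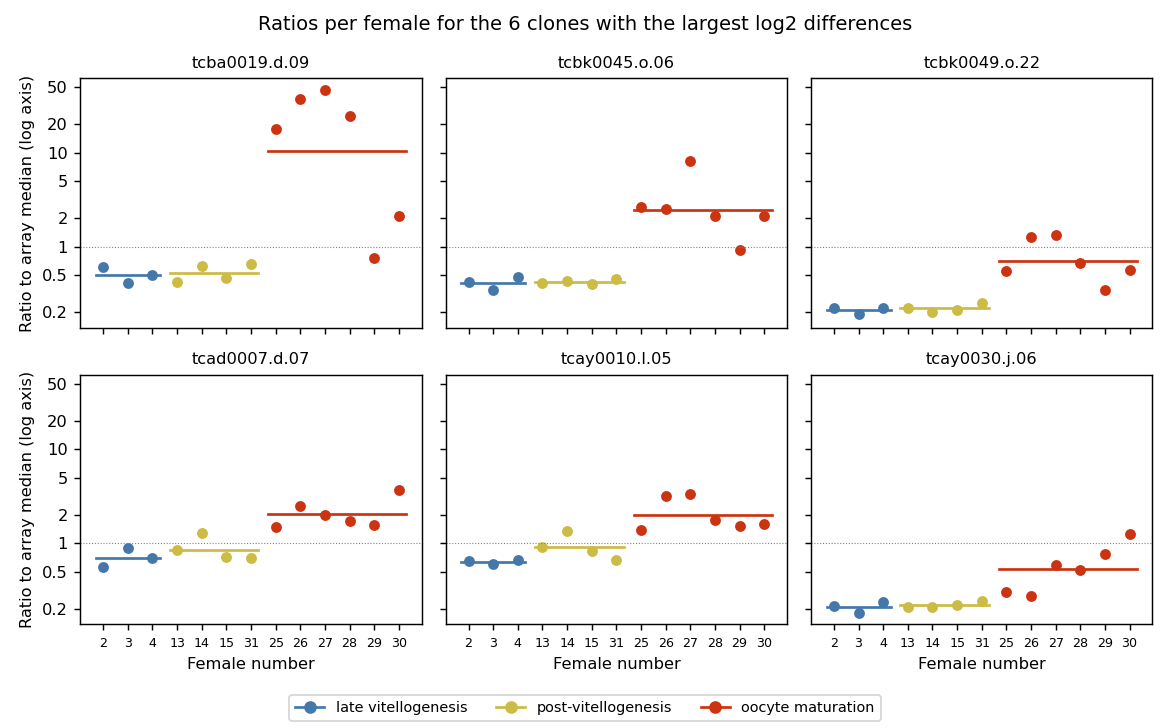
The 6 panels plot the ratio to the array median (shared log axis) in each of the 13 females for the 6 clones with the largest log2 differences, with horizontal bars at the geometric mean of each stage and a dotted line at the array median. In tcba0019.d.09 the maturing females spread from 0.757 to 46.6, while tcad0007.d.07 and tcay0010.l.05 show post-vitellogenic female 14 above the other earlier females.

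In tcad0007.d.07 and tcay0010.l.05, both among the 10 largest differences, post-vitellogenic female 14 was above the other earlier females. For tcad0007.d.07 the maturing ratios ran from 1.5 to 3.67 (median 1.87), against 0.562, 0.889 and 0.700 in late vitellogenesis and 0.841, 1.27, 0.721 and 0.695 in post-vitellogenesis. For tcay0010.l.05 they ran from 1.38 to 3.32 (median 1.68), against 0.644, 0.606 and 0.663 in late vitellogenesis and 0.911, 1.35, 0.820 and 0.669 in post-vitellogenesis. In both, female 14 was the earlier female nearest to the maturing ones, and in tcay0010.l.05 it fell short of the lowest of them by only 1.02-fold. Another of the 10 largest differences, tcba0020.g.20, ran from 0.287 to 0.720 in maturing females (median 0.561), against 0.189 to 0.282 in earlier females.

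The 5 highest levels in maturation, by mean ratio, were those of tcba0019.d.09 (21.4 ± 18.4), 1RT30B19_B_A10 (7.19 ± 1.88), tcbk0045.o.06 (3.08 ± 2.58), tcbk0024.c.18 (2.49 ± 1.01) and 1RT44P11_B_H06 (2.43 ± 0.164; SD, n = 6). In 1RT30B19_B_A10 the ratios ran from 5.38 to 10.8 in maturing females, against 3.32 to 5.32 in earlier females. Its mean ratio was the highest of the group before maturation. In 1RT44P11_B_H06 they ran from 2.29 to 2.74, against 1.68 to 2.21, a 1.26-fold difference with a small spread in both groups.

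Other clones with a wide margin had differences under 2-fold. In 1RT122F07_B_C04 the maturing ratios ran from 1.25 to 1.54, against 0.725 to 1.04 in earlier females. In tcay0037.f.24 they ran from 0.864 to 1.19, against 0.593 to 0.710, and in tcbk0017.a.24 from 0.712 to 1.32, against 0.403 to 0.595. The mean differences of these 3 clones were 1.60-fold, 1.48-fold and 1.75-fold, with margins of 1.19-fold to 1.22-fold. Also among the 10 largest margins were tcbk0057.a.11, tcbk0054.a.24 and tcbk0037.e.17, at 1.72-fold, 1.43-fold and 1.63-fold.

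Most of the clones had low ratios. In the earlier females 74 of the 96 (77.1%) had a mean ratio under 1, against 47.8% of all 8077 clones, and the median level of the 96 was 0.558 against 1.04. In maturing females the median level of the 96 was 0.881, against 1.05 over all clones. The choice held the earlier ratios of the 96 below their maturing ratios, so it bears on the earlier levels. The ratio stayed below the array median in all 13 females in 40 clones and above it in all 13 in 13 clones. Only tcac0004.e.16 and 1RT139P16_D_H08 were below it in all 7 earlier females and above it in all 6 maturing ones.

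Clones of low ratio as a class were slightly higher on the maturing arrays. The 8077 clones were divided into 4 level classes of like size by their mean ratio in the earlier females. Of the 96 clones, 54 lay in the lowest class and 2 in the highest. The classes rest on the earlier ratios, which the choice held below the maturing ones, so these counts are not independent of the choice. The median difference between maturing and earlier females was 0.15 on the log2 scale in the lowest class and -0.09 in the highest. After quantile normalization, which gives all arrays the same distribution of values, these medians were 0.03 and -0.04. The separation was then kept by 70 of the 96 clones, among them all 10 of the largest differences. These 70 included 37 of the 42 clones of at least 1.5-fold and 32 of the 54 clones in the lowest class. The part of ratio level in the difference of a single clone was not tested.

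The choice did not use the direction between post-vitellogenesis and late vitellogenesis, but it bounded all 7 earlier females from above by the lowest maturing one. It therefore limits how far those stages could differ, and the calls between them are given with that limit and do not settle whether the clones changed before germinal vesicle breakdown. In the limma fit of all 3 stages together, 0 of the 96 clones passed (adjusted p, Benjamini-Hochberg over 8077 clones) and 0 were under an unadjusted p of 0.05. The spread in that fit includes that of the maturing females. Over all clones 2 (0.0248%) passed limma and 240 (2.97%) were under an unadjusted p of 0.05. A SAM-style permutation test called 0 of the 96 and 0 of all 8077 clones. With 3 and 4 females few regroupings exist, so that test had little room to call any clone. In a limma fit on the 7 earlier arrays alone, 2 of the 96 and 301 of all 8077 clones were under an unadjusted p of 0.05. That fit called 0 of the 96 and 1 of all clones.

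The differences between post-vitellogenesis and late vitellogenesis were small. They ran from -0.24 to 0.51 on the log2 scale with a median of 0.06, against a median of 0.03 over all clones, and their standard errors ran from 0.12 to 1.01 with a median of 0.16. A mean higher in post-vitellogenesis was found in 70 of the 96 clones (72.9%), against 59.6% of all clones. Late vitellogenic female 3 was the lowest of the 7 earlier females in 50 of the 96 clones (52.1%), against 27.1% of all clones. It was the highest of them in 10.4% of the 96, against 20.9% of all clones. The choice capped the highest earlier ratio and left the lowest free, so it bears on both shares. The array of female 3 had the lowest 10th percentile of ratios (0.316, against 0.372 to 0.490 on the other arrays). Without female 3 the median difference of the 96 clones was 0.00, against 0.03 over all clones, and 52 of the 96 had a higher mean in post-vitellogenesis. No share of all clones is given for that last count. The part of female 3 in the higher post-vitellogenic means was not tested.

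The 3 largest differences between these stages were those of tcay0010.l.05 (0.51 ± 0.29 on the log2 scale, standard error), 1RT58G03_A_D02 (0.38 ± 0.20) and 1RT65A03_A_A02 (0.35 ± 0.26), with unadjusted p from limma of 0.0934, 0.0809 and 0.20 and an adjusted p of 1 each. In 1RT58G03_A_D02 the post-vitellogenic ratios were 0.388, 0.443, 0.438 and 0.461, against 0.424, 0.230 and 0.378 in late vitellogenesis, where female 3 was the low one. In 1RT65A03_A_A02 they were 1.13, 1.48, 1.53 and 1.19, against 1.10, 0.865 and 1.18, so that the stages overlapped. The groups of tcay0010.l.05, given above, did not overlap.

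At the other end, 1RT34L20_D_F10, 1RT145B24_D_A12 and 1RT122F07_B_C04 had differences of -0.24 ± 0.17, -0.21 ± 0.16 and -0.20 ± 0.13 (log2 scale, standard error), none of which was called. The ratios of 1RT34L20_D_F10 were 0.604, 0.639, 0.554 and 0.741 in post-vitellogenesis, against 0.777, 0.678 and 0.792 in late vitellogenesis. Female 31 overlapped with the late vitellogenic range in that clone.

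Every post-vitellogenic female was above every late vitellogenic female in 2 of the 96 clones, tcay0010.l.05 and tcbk0025.p.01 (the second named after its values were seen), against 3.63% of all clones. The reverse was found in 0 of the 96, against 1.3% of all clones. In tcbk0025.p.01 the post-vitellogenic ratios were 0.567, 0.569, 0.523 and 0.546, against 0.513, 0.508 and 0.515 in late vitellogenesis, a difference of 0.11 on the log2 scale.

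**Figure D4:**
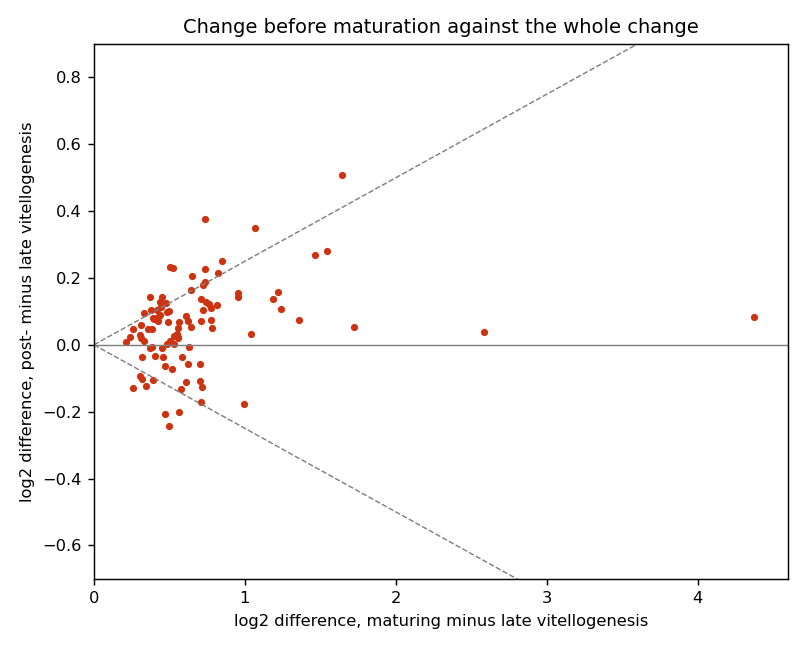
Each point is 1 of the 96 clones, with the log2 difference between maturing and late vitellogenic females on the horizontal axis and that between post-vitellogenic and late vitellogenic females on the vertical axis. Dashed lines mark 25% and -25% of the whole change. The 3 clones with the largest whole change, tcba0019.d.09 at the right edge among them, lie near the zero line, and tcay0010.l.05, with the next largest, has the highest point of all (0.51).

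Set against the whole change between late vitellogenesis and maturation, the part present in post-vitellogenesis had a median of 9.81% (range -50.3% to 51.1%). It was above 25% in 19 clones, between -25% and 25% in 69 and below -25% in 8. The 3 largest shares were those of 1RT58G03_A_D02, tcbk0020.i.17 and tcbk0054.l.03 (51.1%, 46.6% and 44.3%). In the last 2 the post-vitellogenic means were 0.452 ± 0.027 and 0.471 ± 0.044, against late vitellogenic means of 0.388 ± 0.067 and 0.404 ± 0.061 (SD, n = 4 and n = 3), with female 3 lowest in both. Without female 3 the number of clones above 25% was 6 in place of 19. For the 3 clones with the largest difference in maturation, the shares were 1.92%, 1.46% and 3.06%.

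Among post-vitellogenic females, number 31 was the highest of the 4 in 46 of the 96 clones (47.9%), against 28.8% of all clones. Female 14 was the highest in 27 (28.1%, against 31.6%). The array of female 31 had the highest 10th percentile of ratios of its stage (0.410, against 0.372 to 0.383). Whether this bears on the standing of female 31 was not tested. On a scale that puts the late vitellogenic mean at 0% and the maturing mean at 100%, the median position of the 96 clones was 20.6% in female 31 and 15.2% in female 14, 5.46% in female 13 and 3.96% in female 15. The late vitellogenic females stood at 7.90% in female 2, -21.0% in female 3 and 8.41% in female 4, so that females 13 and 15 lay below 2 of the 3. The maturing females lay between 80.3% in female 25 and 126% in female 30 on this scale.

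The counts for the contrasts that the choice used are a description only. Between maturing and earlier females limma called 85 of the 96 clones higher, and 4.09% of all 8077 clones. Between maturing and post-vitellogenic females it called 52 of the 96 higher, and 1.81% of all 8077 clones. Between maturing and late vitellogenic females it called 50 of the 96 higher, and 2.46% of all 8077 clones. The comparisons share the maturing females. Of the 11 clones that did not pass in the first comparison, tcay0026.n.16 and tcbk0014.m.11 had the largest differences, 1.59-fold and 1.52-fold, each with 1 maturing female far above the rest: 3.89 in female 30 against 1.22 to 1.96 in the other five for tcay0026.n.16, and 2.92 in female 27 against 0.873 to 1.004 for tcbk0014.m.11.

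Female 30 was the highest of the 6 maturing females in 42 of the 96 clones (43.8%), against 35.5% of all clones, and female 27 in 19 (19.8%), against 8.46%. Female 26, the highest in 21.01% of all clones, was the highest in 9.38% of the 96. The lowest of the 6 was most often female 28 or 29, in 24 clones each (25% each, against 19.2% and 16.5% of all clones), and female 30 in 4 (4.17%, against 22.4%). The choice required the lowest maturing ratio to exceed all earlier ones, which leaves out clones in which a maturing female falls low. The shares of the 96 by maturing female are therefore shaped by the choice and test nothing. The array of female 30 had the most clones at 0, 751 against 377 to 725 on the others. It stood apart in its correlations with the other maturing arrays (across clones on the log2 scale). They ran from 0.913, with female 28, to 0.928, while every other maturing array had a highest correlation of at least 0.970. Its log2 ratios also had the smallest SD across clones (1.074, against 1.156 to 1.353 on the other arrays). Whether this bears on the standing of female 30 was not tested. Without female 30 the median difference of the 96 clones was 0.49 on the log2 scale, against 0.54 with it.

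**Figure D5:**
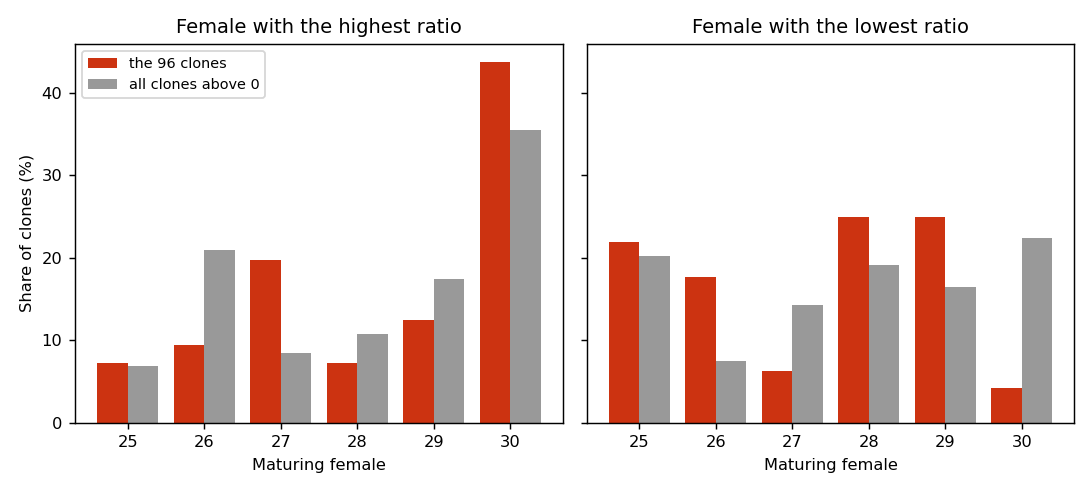
Bars give the share of clones (%) for which each maturing female had the highest ratio of the 6 (left) or the lowest (right), for the 96 clones in red and for all 8077 clones in grey. Female 27 was the highest in 19.8% of the 96 clones against 8.46% of all clones, and female 30 was the lowest in 4.17% against 22.4%. The choice of the 96 clones by their lowest maturing ratio shapes these shares.

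The clones whose log2 ratios followed the 3 largest differences most closely over the 13 females were sought among all 8077 clones. For tcba0019.d.09 these were tcad0001.b.13 (Pearson r = 0.971), tcbk0024.c.18 (0.949) and tcbk0049.o.22 (0.949), of which tcad0001.b.13 is not one of the 96. Its maturing ratios ran from 0.355 to 1.23, against 0.318 to 0.390 in earlier females, so that female 29 alone kept it from the separation. For tcbk0045.o.06 and tcbk0049.o.22 the nearest clone was the same one, 1RT148F22_D_C11 (r = 0.980 and 0.976), which the study lists as similar to chicken ETS2, a transcription factor of the ETS family. Its ratios ran from 2.09 in female 29 to 4.78 in female 27, against 1.05 to 1.28 in the earlier females. These correlations hold the step between the stages, by which the 96 clones were chosen, and are given as a measure of likeness with no test.

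By library, 1RT clones made up 36 of the 96 (37.5%, against 35.7% of the 8077), tcbk 26 (27.1%, against 22.5%), tcay 15 (15.6%, against 16.8%) and tcba 14 (14.6%, against 9.55%), with tcac and tcad at 2 each (2.08%, against 3.33% and 5.49%) and tcag at 1. They came from 80 of 326 plates, as read from the clone names, 67 of which held 1 of them, and the most on a plate were 4 of the 30 clones of 1RT102. None of the 96 names was among the 76 reads that name the contigs of listed clones. Only 30 of these reads were spotted clones, and they include listed clones, which the choice left out, so this says little about the 96. A further 2 unlisted clones, 1RT42F07_B_C04 and tcay0025.p.13, met the separation but were listed at 0 in 1 earlier female each. The ratios of 1RT42F07_B_C04 ran from 1.28 to 5.03 in maturing females, against 0.574 to 1.23 in the 6 earlier females above 0, and those of tcay0025.p.13 from 3.12 to 7.04, against 2.55 to 3.06.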

How the data were processed

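RNA of each female was reverse transcribed into phosphorus-33 labelled cDNA, which was hybridized to 1 array, and signals were quantified by the authors with ArrayGauge. The deposited values are ratios: the authors removed spots whose vector oligonucleotide signal was under 3 times background, corrected each signal for spotted DNA and divided by the array median. The meaning of an exact 0 is not given in the sources used here. Clones are known by name only. Of the 90 listed clones, 89 were in the table.

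Ratios of the 8077 clones above 0 on all arrays were log2-transformed without a pseudocount. Stages were compared with limma 3.58.1 (R 4.3.3), 3 stages fitted together, and the 6 maturing against the 7 earlier females, two-sided, with Benjamini-Hochberg adjustment over all clones and a threshold of 0.05. The fit was checked on simulated data. A SAM-style permutation test, read at the same threshold, was an alternative, while the study used SAM at its lowest false discovery rate. The clones named are the 10 largest differences and the 10 largest margins, 5 highest levels, 3 smallest margins, 3 nearest outside, and 3 each of the largest and smallest differences between post- and late vitellogenesis and largest shares of the rise. The 96 clones, lists and rules were chosen with earlier results of these data known. Alternatives were other scalings, filters, a pseudocount, array weights and leaving out each female. Only 3 to 6 arrays per stage limit precision.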

Additional observations from a re-analysis of the deposited data

Results flagged for a closer look

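For each of the 28 named clones, the maturing and the post-vitellogenic females were searched for a female far from the others of its stage. Of the 56 groups of log2 ratios, 6 held such a female. Chance alone marks about 1 in 20 independent groups that were not picked by their values. These clones were named for extreme values of the same ratios, and the groups share females. The count therefore cannot be set against that rate.

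In maturing females, tcbk0014.m.11 was 2.92 in female 27, against 1.004 in the next female, and tcac0004.e.16 was 3.97 in female 30, against 1.70 in the next. 1RT58G03_A_D02 was 0.812 in female 30, against 0.554 in the next female, and 1RT44P11_B_H06 was 2.74 in female 25, against 2.45 in the next.

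In post-vitellogenic females, tcbk0006.b.10 was 0.386 in female 31, against 0.313 in the next female, and tcbk0014.m.11 was 0.627 in female 15, below the next lowest at 0.850.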

How the results depend on the processing

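No paired analysis was possible because each female is in 1 stage only and no number links females across stages. The 96 clones became 104 after quantile normalization (70 shared), 89 with arrays divided again by the median of the kept clones (82 shared) and 98 with zeros allowed, and 1 with a margin of at least 1.5 times. Leaving out 1 female gave 105 to 163 clones, with 163 without female 14 or female 28. Under the rule, leaving out a female can only add clones. All 96 were therefore kept each time, and these counts test nothing. Between post- and late vitellogenesis 0 of the 96 were called under every alternative run, while 0 to 22 of all clones tested were called.

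For the contrasts the choice used, an adjusted p under 0.007 left 48 of the 96 higher between maturing and earlier females. It left 10 between maturing and post-vitellogenic females and 11 between maturing and late vitellogenic females. Of all 8077 clones it left 127, 55 and 70 higher, in that order. With zeros kept and log2(ratio + 0.1), the last contrast had 29 of the 96 and 109 of 9023 clones called higher. Leaving out 1 female gave 68 to 84, 24 to 57 and 12 to 54 calls among the 96. Over all 8077 clones, 236 to 390, 85 to 167 and 80 to 228 were then called higher. The second count was lowest without female 15 (24 of the 96, 85 of all clones). The third was lowest without female 3 or 4 (12 and 17 of the 96, 80 and 92 of all clones). The alternatives for these stage pairs were chosen after seeing the data. The number of clones with over 25% of the change in post-vitellogenesis was 7 after quantile normalization and 6 to 28 with a female left out, 6 without female 3. The cause was not tested. The 420 alternative values of the named clones' differences were all above 0 and within the spread of the females. Because the choice separated the groups, leaving out a female could not change the sign, which is a description and tests nothing.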

Other observations

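Among the 64 water spots of each array, which carried no clone, all were at 0 except 1 on each of 11 arrays, which had ratios from 1.49 to 2.02 under 5 different spot names. Those ratios are above the mean earlier ratio of the 74 clones described as under 1. Each signal was corrected for the DNA in the spot, and whether these spots give a blank level for the clones was not tested.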
